A study of Mus musculus with 10 samples.

Results

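The genes described are the 10 cytosolic heat shock chaperones and co-chaperones Hspa1a, Hspa1b, Hspa8, Hsph1, Dnajb1, Dnaja1, Hsp90aa1, Hsp90ab1, Hspb1 and Bag3. They were taken by gene symbol from a table of read counts for 53167 genes, and all 10 were found and had enough counts to be tested. The table came from primary mammary epithelial cells of wild-type mice. In 5 samples labelled BGN the soluble proteoglycan biglycan was added as a protein at 100 ng/mL, and in 5 labelled Control no protein was added. All cells grew in DMEM with fetal bovine serum and antibiotics, and polyadenylated RNA was sequenced; the study asked how the cells respond to soluble biglycan, with WNT signalling and migration in view. The labels used here give no duration of treatment, age or strain, and do not say whether replicates were separate animals or cultures, so a p-value here reflects only how far these samples vary, and part of that variation may be technical.

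Cytosolic chaperones keep newly made and stress-damaged proteins from aggregating and help them fold. HSP70 proteins bind exposed stretches of a client in a cycle driven by ATP: J-domain proteins deliver the client and start ATP hydrolysis, and nucleotide exchange factors release it. HSP90 acts later on near-folded clients such as kinases and steroid receptors, and small heat shock proteins hold unfolded clients without ATP. When unfolded proteins accumulate, the transcription factor HSF1 is freed, binds heat shock elements, which are repeats of the unit nGAAn in alternating orientation, and raises the inducible members. Warming and dissociation of cells can set off this response.

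Promoter sequences were available from RefSeq (GRCm38.p6) for 7 of the 10 genes; Hspa8, Hsp90aa1 and Hsp90ab1 were not matched. The search covered 250 bases before and 50 bases after each listed start site, on both strands, for adjacent perfect units in either order (GAANNTTC or TTCNNGAA) and for 3 units in a row (GAANNTTCNNGAA or TTCNNGAANNTTC, which contain the shorter matches). The 7 genes have 11 listed windows, some overlapping. An adjacent match in either order lay in 7 of these 11, and in 15.1% of all 32851 windows (7.86% for GAANNTTC and 8.52% for TTCNNGAA). By gene, 6 of the 7 held a match in at least 1 window, Dnajb1 being the other. The share by gene over all genes was not computed, so this count cannot be set against the 15.1% of windows. Hsph1, Dnajb1 and Dnaja1 have more than 1 window each, and the near-identical Hspa1a and Hspa1b count separately. The 3-unit form lay in Hsph1 alone among the 7, and in 0.603% of all windows. Hspa1a and Hspa1b are shown because their windows differed at 4 of 300 bases (98.7% identity). This shows how near these 2 windows, not the whole genes, are to copies of each other. Hspb1 is shown for its pair of matches. Hsph1, the member of largest spread over all the libraries, is shown for its 3-unit match. Each is written 5′ to 3′ along the gene. Capitals mark adjacent matches in the first 3 sequences, which run from 250 bases before to 30 bases after the start site, and the 3-unit match in the fourth.
Hspa1a (chr17:34972127-34972406, minus strand): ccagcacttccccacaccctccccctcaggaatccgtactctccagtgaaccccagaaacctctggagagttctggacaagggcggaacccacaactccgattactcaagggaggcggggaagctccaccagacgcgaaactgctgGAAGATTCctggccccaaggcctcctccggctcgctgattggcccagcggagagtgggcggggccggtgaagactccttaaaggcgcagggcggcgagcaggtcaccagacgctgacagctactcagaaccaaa
Hspa1b (chr17:34959209-34959488, minus strand): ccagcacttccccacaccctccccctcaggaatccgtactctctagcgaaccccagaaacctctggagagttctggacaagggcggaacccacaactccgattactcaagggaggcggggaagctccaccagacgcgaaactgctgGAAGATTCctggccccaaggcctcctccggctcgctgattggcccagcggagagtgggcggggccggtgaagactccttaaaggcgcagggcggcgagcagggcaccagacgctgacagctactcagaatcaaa
Hspb1 (chr5:135887669-135887948, plus strand): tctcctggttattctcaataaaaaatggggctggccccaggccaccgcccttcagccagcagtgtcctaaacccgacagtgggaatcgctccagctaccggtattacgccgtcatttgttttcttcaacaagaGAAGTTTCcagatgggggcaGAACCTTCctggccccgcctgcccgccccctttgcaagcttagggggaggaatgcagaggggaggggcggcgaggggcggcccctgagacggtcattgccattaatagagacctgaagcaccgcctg
Hsph1 (chr5:149636279-149636308, minus strand): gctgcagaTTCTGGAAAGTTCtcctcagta

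In Hspa1a and in Hspa1b the match GAAGATTC began 104 bases before the start site. Hspb1 held GAAGTTTC at 117 bases and GAACCTTC at 97 bases before its start. The Hsph1 element began 15 bases after the later of its listed start sites. Hsph1 also held the adjacent match TTCTCGAA, not shown above, which began 54 bases before that site. These are matches of letters in a window; no binding was measured.

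Total counts per library ran from 18292624 to 21820560 and overlapped between the groups (exact permutation test, two-sided, p = 0.286; the smallest p that 252 assignments allow is 0.00794). The epithelial markers Krt5, Krt14, Krt8, Krt18, Epcam and Cdh1 together had 8288 to 8642 CPM, counts scaled to library size, in BGN and 8244 to 9743 in Control. Among markers of other cells, the 8 fibroblast genes summed to 40.3 to 59.3 CPM over the libraries, most of it from Pdgfra (32.2 to 49.4 CPM). The 7 myeloid genes summed to 381 to 452 CPM, nearly all of it from Cd14 (378 to 448 CPM), while Adgre1 had no count in any library, which allows up to 0.0153 CPM over the 10 libraries together, and Ptprc had 2 counts in all. BGN 5 had the highest total, little above that of Control 2, and Control 5 had 1.16% of its counts on mitochondrial genes, against 1.80% to 2.27% in the other 9. Ribosomal protein genes took 4.33% of the counts in Control 1 and 4.28% in Control 5, against 3.70% to 3.85% in the other 8.

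The 10 genes differed far more from each other than between groups. CPM were scaled by the trimmed mean of M-values (TMM) and divided by the length of each gene's exons in kilobases to compare genes. On that scale Hsp90ab1, the constitutive cytosolic HSP90, was highest at 1533 ± 52.9 CPM per kb in BGN and 1554 ± 34.4 in Control (SD, n = 5 in each group, as in all values below). Hspa8, the constitutive HSP70 known as HSC70, followed at 805 ± 45.6 and 833 ± 46.2, and Hsp90aa1, the more stress-inducible HSP90, at 260 ± 16.5 and 264 ± 14.9. The small heat shock protein gene Hspb1 had a mean of 73.5 CPM per kb over the 10 libraries, the J-domain gene Dnaja1 58.9, and Hspa1b, a stress-inducible HSP70, 45.3. Hsph1, which encodes HSP110, had 29.6 and Bag3, a co-chaperone of HSP70, 28.5. Dnajb1, the main stress-inducible J-domain gene, had 21.98, and the inducible HSP70 gene Hspa1a was lowest at 6.80. In this order the ranges over the 10 libraries overlapped between 1 pair of neighbours, Hsph1 (25.9 to 36.5 CPM per kb) and Bag3 (25.5 to 30.04). These ranges cover variation between libraries only. The order also depends on the exon length used and on how reads shared between genes were assigned.

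**Figure D1:**
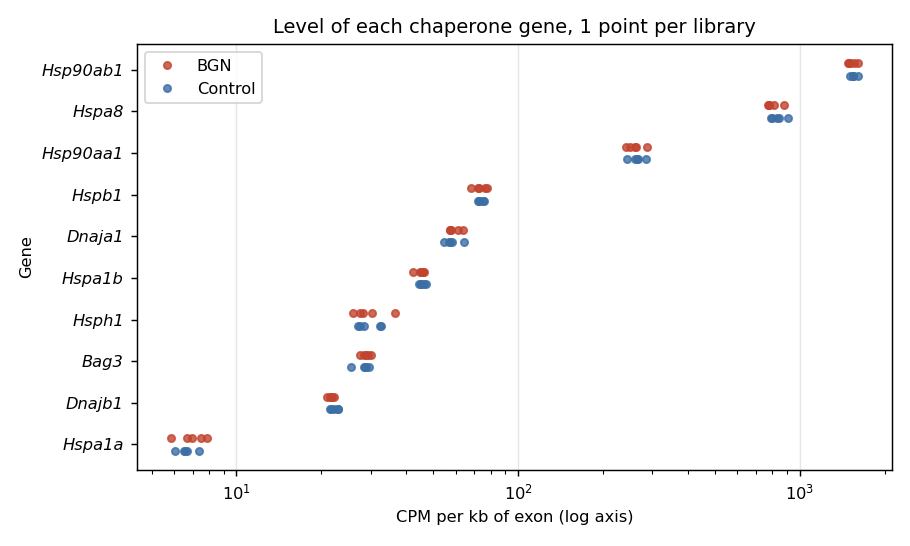
Level of each gene in CPM per kilobase of exon on a log axis; each point is 1 library, coloured by group. Hsp90ab1 (1488 to 1612) is at the top and Hspa1a (5.85 to 7.87) at the bottom, and the groups lie on top of each other for every gene.

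Together the 10 genes took 0.749% ± 0.035 of all counts in BGN and 0.764% ± 0.0252 in Control. The question put to the comparison for these genes was whether added biglycan moved their transcripts. None of the 10 was called at an adjusted p below 0.05 (edgeR quasi-likelihood test, Benjamini-Hochberg over 14415 genes), where 0% of all tested genes were called. None reached an unadjusted p under 0.05 either, against 694 of the 14415 tested genes (4.81%), and for none did the libraries of one group lie wholly above those of the other, against 105 tested genes (0.728%). The log2 fold change of BGN over Control was above 0 for 4 genes and below 0 for 6, with a median of -0.01; over all tested genes 6921 lay above and 7494 below 0, with a median of -0.0040. Without both libraries numbered 5 none of the 10 was called either, and their median was -0.02. These are bulk libraries, in which fewer cells of a type and less RNA per cell cannot be told apart.

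The HSP70 genes overlapped between the groups. Hspa8 had 1860.1, 1869, 1855, 1946 and 2112 CPM in BGN 1 to 5 and 1992, 1899, 1901, 2014 and 2169.6 in Control 1 to 5. The highest library of each group was the one numbered 5, and the groups overlapped over most of their range. The log2 fold change was -0.05 (SE 0.045; 95% interval -0.14 to 0.04; edgeR adjusted p = 0.966). Hspa1b had 127, 119, 129, 126 and 129.6 CPM in BGN and 127, 127, 130.2, 125 and 132 in Control. All 10 values lay within 1.11-fold of each other, and the log2 fold change was -0.02 (SE 0.039; 95% interval -0.11 to 0.06; edgeR adjusted p = 0.982). Hspa1a had 23.3, 20.7, 22.2, 19.8 and 17.4 CPM in BGN and 21.9, 19.9, 19.4, 18.01 and 19.3 in Control. BGN held both its highest and its lowest library, BGN 1 and BGN 5. Its log2 fold change, 0.07 (SE 0.079; 95% interval -0.09 to 0.23; edgeR adjusted p = 0.9747), had the widest interval but that of Hsph1.

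Counts of several of these genes depend on how reads from near-identical copies were assigned. In the GENCODE M21 transcripts, 49.9% of the 100-base windows of Hspa1b also occurred in Hspa1a, and 47.1% of those of Hspa1a in Hspa1b. Hspa1a held 14.1% ± 1.44 of the counts on the 2 genes in BGN and 13.3% ± 0.847 in Control, from 11.8% (95% Wilson interval 10.7% to 13.0%, counting error only) in BGN 5 to 15.5% (14.3% to 16.9%) in BGN 1. With the counts of the 2 genes added together the log2 fold change was -0.01, against 0.07 for Hspa1a alone and -0.02 for Hspa1b alone. Most of the added counts were those of Hspa1b. Windows were shared with other genes' transcripts for 57.1% of Hspa8, 44.0% of Hspb1, 40.6% of Hsp90aa1 and 22.6% of Dnaja1, and for none of Hsp90ab1, Hsph1, Bag3 and Dnajb1. The main partners Gm12346 of Hsp90aa1 and Gm15542 of Dnaja1 had 192 to 262 and 216 to 331 counts per library, and Hsp25-ps1 of Hspb1 had 4 to 19. Gm26825, the main partner of Hspa8 with 52.6% of its windows, was not among the counted genes, so no count can be given for it. How reads in the shared windows were assigned is not known, so the levels of these members are uncertain by an amount these counts do not bound.

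Hsph1 encodes the HSP110 protein, an exchange factor that releases nucleotide from HSP70. It had 109.5, 119, 116, 128 and 154 CPM in BGN 1 to 5 and 116, 114, 120.1, 137 and 138 in Control 1 to 5. Within each group the libraries numbered 4 and 5 were the highest, and BGN held both the lowest and the highest library. The group means were 125 ± 17.4 (BGN) and 125 ± 11.6 CPM (Control). On the log2 scale BGN over Control was 0.01 (SE 0.096; 95% interval -0.21 to 0.22; edgeR adjusted p = 0.996), and it was below 0 without BGN 5, at -0.08. This was the widest interval of the 10 genes.

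The J-domain genes overlapped between the groups as well. Dnajb1, whose protein starts the cycle of HSP70 on aggregated clients, had 69.5, 67.2, 70.2, 71.4 and 69.0 CPM in BGN and 73.7, 68.9, 71.4, 69.6 and 73.4 in Control. Control 1 and Control 5 were the highest of the 10 libraries, and the others overlapped. The log2 fold change was -0.04 (SE 0.042; 95% interval -0.13 to 0.05; edgeR adjusted p = 0.9747). Dnaja1, a J-domain partner of HSC70 that carries a farnesyl anchor, had 332, 354, 331, 334 and 369 CPM in BGN and 336, 315, 327, 372 and 332 in Control. One library in each group, BGN 5 and Control 4, stood above the other 8. On the log2 scale BGN over Control was 0.03 (SE 0.046; 95% interval -0.06 to 0.13; edgeR adjusted p = 0.979).

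Hsp90ab1 was the most deeply counted member, with a mean of 76465 counts per library. Hsp90ab1 had 3749, 3758, 3813, 3937 and 4061 CPM in BGN and 3901, 3815, 3910.5, 3904 and 4055 in Control. The libraries numbered 5 were again the highest of each group, and the highest library was 1.08 times the lowest. Its log2 fold change, -0.02 (SE 0.037; 95% interval -0.10 to 0.06; edgeR adjusted p = 0.985), had the narrowest interval of the 10. Hsp90aa1 had 843, 877, 820.1, 886 and 967 CPM in BGN and 878, 825, 903, 965 and 897 in Control. As for Dnaja1, BGN 5 and Control 4 were the highest libraries. The log2 fold change was -0.02 (SE 0.047; 95% interval -0.12 to 0.07; edgeR adjusted p = 0.985).

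Hspb1, called HSP25 in the mouse, holds unfolded clients and binds actin filaments. It had 74.3, 70.4, 78.7, 79.7 and 74.8 CPM in BGN and 78.2, 74.4, 74.9, 74.8 and 77.2 in Control. BGN held the 2 highest libraries and the lowest one, and the log2 fold change was -0.01 (SE 0.044; 95% interval -0.10 to 0.09; edgeR adjusted p = 0.994). Bag3, whose protein links HSP70 to small heat shock proteins and to autophagy of aggregated clients, had 72.8, 74.1, 77.0, 75.3 and 70.3 CPM in BGN and 65.2, 73.9, 73.2, 72.8 and 75.5 in Control. Control 1 was the lowest library by a wide gap, and the other 9 overlapped. On the log2 scale BGN over Control was 0.03 (SE 0.047; 95% interval -0.06 to 0.13; edgeR adjusted p = 0.977).

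**Figure D2:**
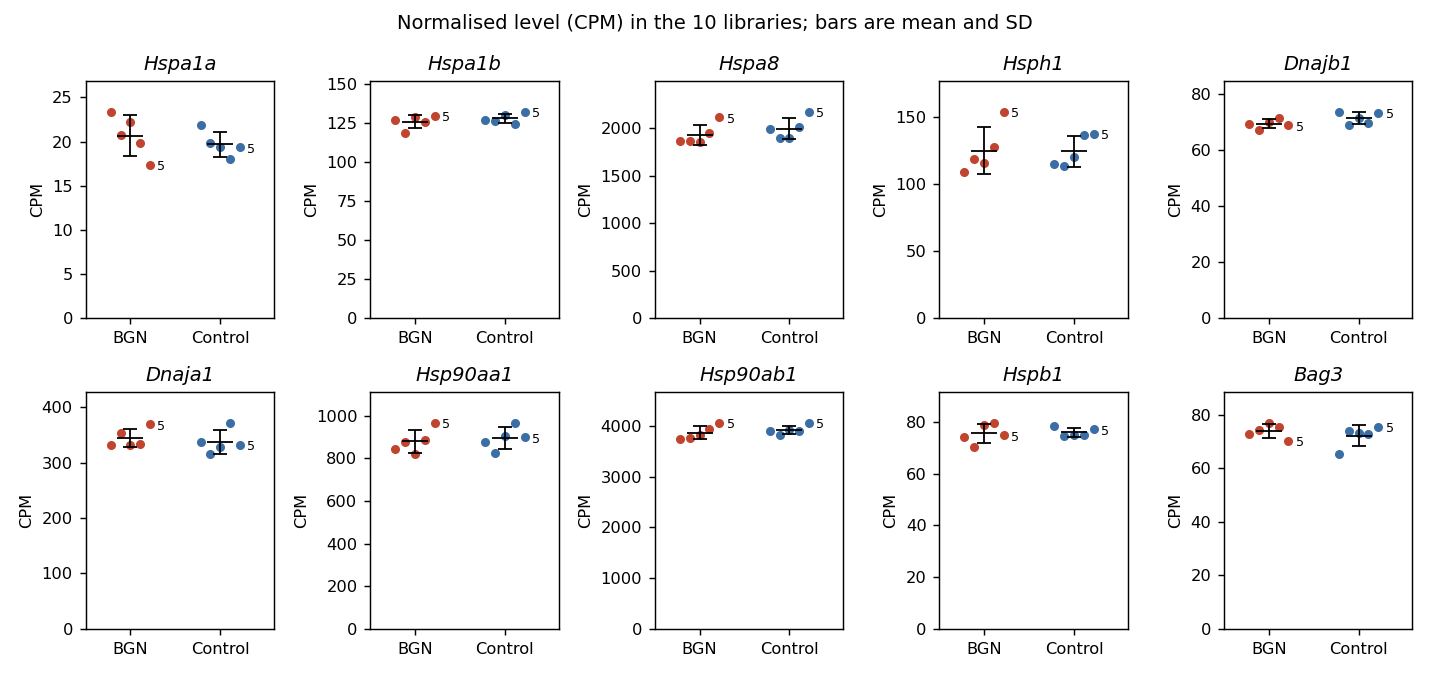
TMM-scaled CPM of each gene (vertical axis of each panel) in the 5 BGN and 5 Control libraries; points are libraries, bars the group mean and SD, and the digit 5 marks the libraries numbered 5. The groups overlap in all 10 panels, and the libraries numbered 5 are the highest of both groups for Hspa1b, Hspa8, Hsph1 and Hsp90ab1.

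A p above the threshold does not show that a gene did not move, so the 95% intervals of the edgeR fit are given for each. The 95% interval of all 10 genes stayed inside 1.5-fold both ways, the widest being -0.21 to 0.22 on the log2 scale for Hsph1. Over all tested genes this held for 84.9%.

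**Figure D3:**
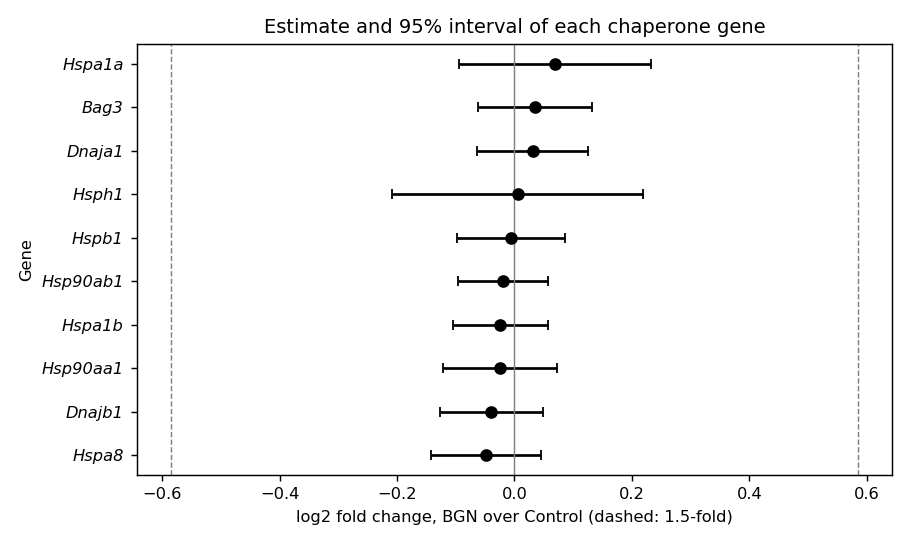
Log2 fold change of BGN over Control for each gene with its 95% interval from the edgeR fit; the solid vertical line is 0 and the dashed lines are 1.5-fold. Every interval crosses 0, the widest for Hsph1 and the narrowest for Hsp90ab1.

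The genes did vary between libraries, and by unequal amounts. The SD of log2 CPM over the 10 libraries was largest for Hsph1 at 0.155, higher than that of 78.2% of the 11965 tested genes that averaged 50 counts or more. Its coefficient of variation was 11.2%, where counting error alone gives 2.02%, and its highest library was 1.41 times its lowest. Hspa1a was next with an SD of 0.132 and a coefficient of variation of 9.23%, where counting error gives 5.03%. Hsp90aa1, Hspa8, Dnaja1 and Bag3 had SDs between 0.067 and 0.082. Hspb1 had 0.053. The evenest were Hspa1b (0.042), Dnajb1 (0.042) and Hsp90ab1 (0.041), whose SDs were above those of 2.84%, 2.78% and 2.36% of the same genes. For Dnajb1 the coefficient of variation of 2.90% was near the 2.69% of counting error, and for Hsp90ab1 2.82% stood against 0.362%. Without both libraries numbered 5 the SD of Hsph1 was 0.102, and Hspa1a then had a larger spread than Hsph1. The first place of Hsph1 thus rests on those libraries.

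**Figure D4:**
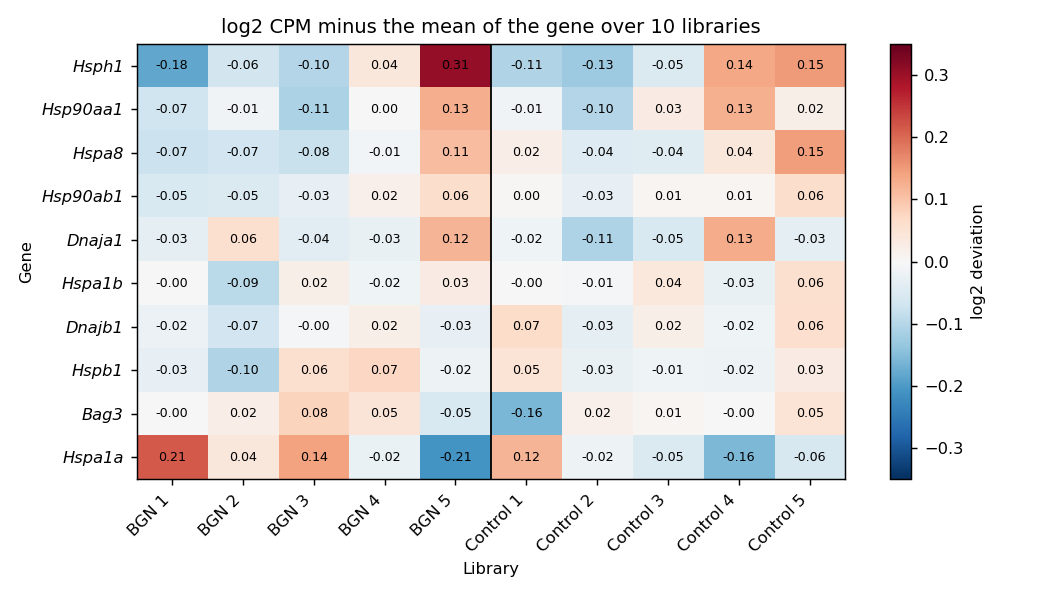
Deviation of each gene (rows) in each library (columns), as log2 CPM minus the mean of that gene over the 10 libraries, on a colour scale. Hsph1 ranges from -0.18 in BGN 1 to 0.31 in BGN 5, and Hspa1a from 0.21 in BGN 1 to -0.21 in BGN 5.

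Several members were high or low in the same libraries. Pearson r and Spearman rho of log2 CPM over the 10 libraries were computed for all 45 pairs of members, with 100000 permutations (two-sided) and adjustment over the 45 pairs. By r, 7 pairs passed an adjusted p of 0.05, 5 with positive and 2 with negative r, and 5 of the 7 passed by rho as well. The positive pairs were Hspa8 with Hsp90ab1, Hsph1 with Hsp90ab1, Hsp90aa1 and Hspa8, and Dnaja1 with Hsp90aa1. The negative pairs were Hspa1a with Hsph1 and with Hsp90aa1. Hspa1b, Dnajb1, Hspb1 and Bag3 were in no pair that passed, and the median r of all 45 pairs was 0.072.

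Hspa8 and Hsp90ab1 had r = 0.913 (permutation p = 0.00031, adjusted 0.0139) and rho = 0.855 (permutation p = 0.0027, adjusted 0.0258), and r = 0.761 without the 2 libraries farthest from the median of Hspa8. Hsph1 had r = 0.853 with Hsp90ab1 (permutation p = 0.00132, adjusted 0.0155; rho = 0.855, p = 0.00278, adjusted 0.0258) and 0.656 without the 2 farthest. Hsph1 and Hsp90aa1 had r = 0.847 (permutation p = 0.00138, adjusted 0.0155; rho = 0.83, p = 0.00491, adjusted 0.0315) and 0.845 without the 2 farthest. These 3 pairs passed by both measures. Hspa8 and Hsph1 had r = 0.837 (permutation p = 0.0031, adjusted 0.0279), 0.682 without the 2 farthest, and a rho of 0.77 that did not pass (permutation p = 0.0124, adjusted 0.056). Dnaja1 and Hsp90aa1 had r = 0.805 (permutation p = 0.00681, adjusted 0.0438) and rho = 0.539 (permutation p = 0.113, adjusted 0.39); r was 0.376 without the 2 farthest libraries, so this relation rests on those.

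Hspa1a was low in the libraries where Hsph1 was high. Hspa1a and Hsph1 had r = -0.868 (permutation p = 0.00085, adjusted 0.0155; rho = -0.891, p = 0.00122, adjusted 0.0258) and -0.739 without the 2 farthest libraries. Hspa1a and Hsp90aa1 had r = -0.814 (permutation p = 0.00497, adjusted 0.0373; rho = -0.879, p = 0.00162, adjusted 0.0258) and -0.738 without the 2 farthest. These rest on 348 to 471 counts of Hspa1a per library and on how reads were divided between Hspa1a and Hspa1b.

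Without BGN 5, 0 of the 45 pairs passed (exact permutation over 9 libraries). In the 7 pairs r kept its sign there, at 0.723 to 0.885 for the positive pairs and -0.805 and -0.733 for the negative ones: it was 0.885 for Hspa8 with Hsp90ab1 (exact permutation p = 0.00165, adjusted 0.0744) and -0.805 for Hspa1a with Hsph1 (exact permutation p = 0.00848, adjusted 0.0851). Without BGN 1, 3 pairs passed; without BGN 4 or without Control 4, 4 passed. BGN 5 had the highest total count of the 10 libraries and Control 5 the lowest mitochondrial share; the part of either in these relations was not tested. With each group's mean removed 8 pairs passed, the 7 among them and Dnajb1 with Hspb1. That pair had r = 0.829 (adjusted permutation p = 0.0191), against r = 0.755 (adjusted permutation p = 0.0674) without that step. The permutations did not allow for the means removed, so the p-values after that step tend to be too small. Groups of 5 are too small for r within a group. For scale, of the 11964 other genes, 0.953% matched or passed the smallest passing r of Hspa1a in size, 2.24% that of Hsph1, 2.72% that of Hspa8, 1.04% that of Hsp90ab1, 2.47% that of Dnaja1 and 3.57% that of Hsp90aa1.

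**Figure D5:**
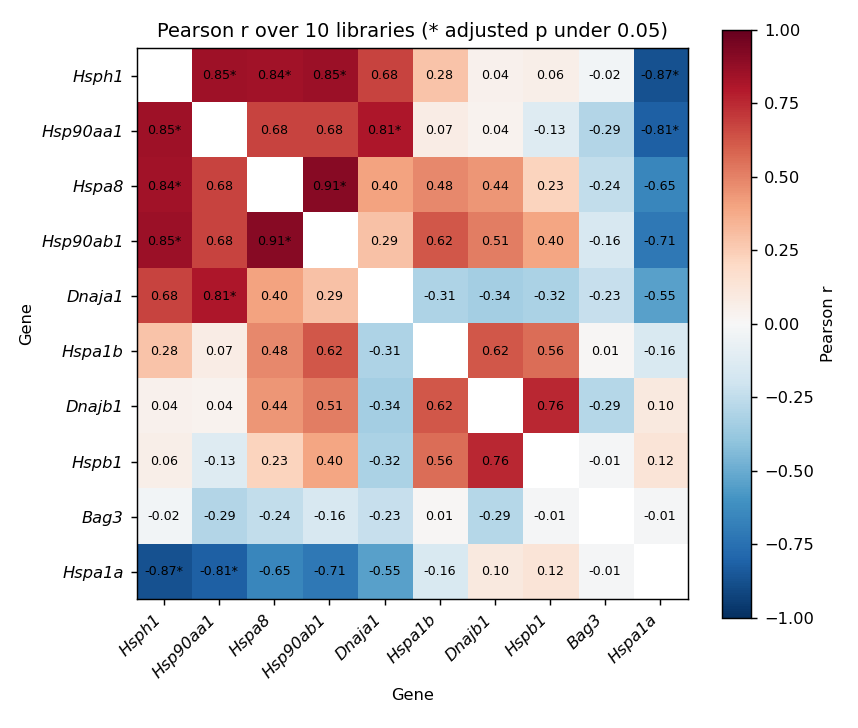
Pearson r between every pair of the 10 genes (rows and columns) over the 10 libraries, on a colour scale from -1 to 1 with the value in each cell; stars mark the pairs with an adjusted permutation p under 0.05. Hsph1 pairs with Hsp90aa1, Hspa8 and Hsp90ab1 in the dark red block, while Hspa1a is blue against Hsph1 and Hsp90aa1 and near 0 against Bag3.

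The mean deviation of the 10 genes in a library, on the log2 scale, was lowest in Control 2 at -0.047 and highest in Control 5 at 0.048 and BGN 5 at 0.044. Each member is part of this mean, and those of larger spread weigh more in it, so part of its own r is fixed in advance. Of the members, Hsp90ab1 followed this mean most closely (r = 0.898 over the 10 libraries), then Hspa8 (0.88) and Hsph1 (0.872), while Bag3 (-0.058) and Hspa1a (-0.591) did not. Outside the members, the 8 genes of at least 50 mean counts with the highest r to it were Lmnb2, a nuclear lamin (0.967), Psmd1, a subunit of the proteasome cap (0.963), Maz (0.954), Lyar (0.946), Adcy5, an adenylyl cyclase (0.94), Zc3h7b (0.931), Hspd1, the mitochondrial chaperonin HSP60 (0.927), and Rrs1, a ribosome assembly factor (0.926). These are descriptions over 10 libraries that share their depth and scaling. By rho, 4 of the 8 were again among the top 8. With the mean of Hsph1, Hspa8, Hsp90aa1 and Hsp90ab1 in place of all 10, 2 of the 8 were, and the top gene was then Shmt1 (0.985), an enzyme of one-carbon metabolism, which was named after its value was seen.

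The wider chaperone system was read from 10 lists. Of their 100 genes, 92 were tested; 30 lay above 0 and 62 below, with a median log2 fold change of -0.03, and edgeR called none at an adjusted p below 0.05 (smallest 0.945). At an unadjusted p under 0.05 there were 5 of the 92, beside the 4.81% of all tested genes. Hsf1, the factor that drives the heat shock response, had 23.5 ± 1.76 CPM in BGN and 23.4 ± 1.39 in Control, a log2 fold change of 0.01 (edgeR adjusted p = 0.995). Of the 4 tested genes in the list of heat shock factors and their binding protein, Hsf1, Hsf2, Hsf4 and Hsbp1, 2 lay above and 2 below 0; Hsbp1, whose protein binds HSF1, had 94.2 ± 1.81 and 98.8 ± 6.67 CPM.

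Of the 6 other HSP70 and HSP110 genes tested, 4 lay above 0 and 2 below. Hspa4, a relative of HSP110, had 507 ± 18.9 CPM in BGN and 499 ± 21.8 in Control, and Hspa4l, another, 145 ± 6.63 and 135 ± 11.3. Hspa12a was at 1.06 ± 0.307 and 0.601 ± 0.27 CPM, few counts, and its adjusted p was 0.945 (edgeR). Of 15 other J-domain genes 8 lay above and 7 below 0, with Dnaja2 at 255 ± 5.30 and 260 ± 9.71 CPM, Dnajc5 at 178 ± 5.85 and 175 ± 4.87, and Dnaja4 at 15.9 ± 0.911 and 14.7 ± 0.915. Of 6 other exchange factor and Bag genes 2 lay above and 4 below 0, among them Bag6 (181 ± 4.57 and 183 ± 10.2 CPM), Bag1 (103 ± 3.60 and 107 ± 6.39) and Bag4 (31.9 ± 1.10 and 29.5 ± 1.86).

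Of the 20 co-chaperones of HSP90 tested, 6 lay above 0 and 14 below, with a median of -0.03. Cdc37, which brings kinases to HSP90, had 209 ± 2.80 CPM in BGN and 218 ± 14.1 in Control, and Ptges3, the p23 protein, 211 ± 7.31 and 211 ± 16.9. Stub1, the ubiquitin ligase CHIP that marks HSP70 and HSP90 clients for degradation, had 30.2 ± 1.248 and 33.6 ± 1.39 CPM and an unadjusted p of 0.0113, with an adjusted p of 0.945 (edgeR). Aarsd1, named after its value was seen, was the other gene of the list with an unadjusted p under 0.05 (edgeR adjusted p = 0.945), at 0.687 ± 0.275 and 0.391 ± 0.13 CPM. Among 4 tested small heat shock protein genes 1 lay above 0; Cryab, the eye lens chaperone that other tissues also make, had 51.2 ± 3.69 and 50.9 ± 3.73 CPM, Hspb8, the partner of BAG3, 14.1 ± 0.982 and 14.2 ± 1.05, and Hspb2 1.02 ± 0.37 and 1.41 ± 0.327.

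TRiC folds actin and tubulin, and prefoldin delivers them to it. Of the 8 subunits of the TRiC chaperonin 1 lay above 0 and 7 below (median -0.02), with Cct2 at 401 ± 13.5 CPM in BGN and 404 ± 12.0 in Control, Cct4 at 384 ± 4.41 and 394 ± 9.67, and Cct7 at 249.6 ± 9.57 and 263 ± 15.7. Of the 6 prefoldin subunits 1 lay above and 5 below (median -0.04), with Vbp1 at 106 ± 2.35 and 105 ± 9.52 CPM and Pfdn5 at 94.1 ± 4.28 and 104 ± 11.1, an unadjusted p of 0.0194 and an adjusted p of 0.945 (edgeR). In Control 1 the prefoldin genes had a mean deviation of 0.113, with all 6 above their own means, and Control 1 and Control 5 were also the libraries with the highest ribosomal protein share; the part of that share was not tested.

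In the mitochondria, 2 of 10 chaperone genes lay above 0 and 8 below (median -0.06), with Hspd1 at 426 ± 30.8 and 424 ± 22.6 CPM, Hspa9, the mitochondrial HSP70, at 361 ± 8.37 and 367 ± 9.70, and Dnaja3, its J-domain partner, at 54.1 ± 1.71 and 58.1 ± 2.80 (unadjusted p = 0.0382; edgeR adjusted p = 0.945). In the endoplasmic reticulum 3 of 13 lay above and 10 below (median -0.04), with Hsp90b1, the HSP90 of that compartment, at 1278 ± 49.9 and 1321 ± 69.0 CPM, Pdia3 at 1118 ± 45.9 and 1141 ± 45.7, and Hspa5, known as BiP, at 905 ± 39.2 and 947 ± 56.9. The groups overlapped for every one of these genes.

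Immediate early genes, which answer serum and handling within minutes, were taken as a separate list. Of 10 tested, 2 lay above 0 and 8 below (median -0.03), and edgeR called none. An unadjusted p under 0.05 was reached by 2 of the 10, Egr1 and Zfp36, beside the 4.81% of all tested genes. Egr1, a zinc-finger factor, had 183 ± 4.74 CPM in BGN and 167 ± 6.40 in Control. Its log2 difference was 0.13 (SE 0.039, edgeR unadjusted p = 0.00289, adjusted p = 0.945). Its 5 BGN values were all higher than its 5 Control values. Groups were separate in this way, in either direction, for 1 of the 10 listed genes and for 0.728% of all tested genes. Zfp36, which encodes an RNA-binding protein and was named after its value was seen, had 37.3 ± 2.39 and 33.5 ± 3.20 CPM (edgeR adjusted p = 0.945), with overlapping groups. Jun had 109 ± 8.70 and 113 ± 10.3 CPM. The 9 immediate early genes averaging at least 50 counts had their lowest mean deviation in BGN 5 (-0.144) and Control 4 (-0.135). In those libraries Dnaja1 and Hsp90aa1 were highest. The highest mean deviation of the immediate early genes was in Control 1 (0.144). In Control 5, where the mean deviation of the 10 members was the highest (0.048), that of the immediate early genes was 0.0517. Whether these lists moved with the chaperones by more than other genes did was not tested.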

How the data were processed

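Polyadenylated RNA of 10 samples, 5 BGN and 5 Control, was sequenced, and groups were taken from the labels. The deposited values are whole-number read counts per gene; per the submitters' processing notes the authors used FastQC, cutadapt 1.9.1, HISAT2 2.2.1, HTSeq and DESeq2 with the GRCm39 build. The annotation release and strand setting were not given in the sources used here, and the way reads of near-identical genes were assigned can change the counts of Hspa1a, Hspa1b, Hspa8, Hspb1, Hsp90aa1 and Dnaja1. Library totals and the precision they give stand in the report; intervals on shares cover counting error only.

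All genes were fitted with edgeR 4.0.16 (R 4.3.3, limma 3.58.1): filterByExpr (14415 of 53167 genes), TMM factors, quasi-likelihood test of group with robust dispersion, and Benjamini-Hochberg adjustment over all tested genes, with calls at 0.05. The scripts were tested on simulated data. SE is the fold change divided by the square root of F. CPM are scaled by TMM, and log2 CPM uses a prior count of 2; sums of markers use library totals. Exon lengths and transcripts came from GENCODE M21 (GRCm38) and promoters from RefSeq (GRCm38.p6), neither of the counts' build, so no coordinate was carried between them. A count of zero was given a floor of 3 counts.

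Named genes are the 10 members, in each chaperone list the 2 of highest mean CPM and the 1 of smallest p, the 8 genes most like the members, Hsf1, and any gene called; the genes called only without a filter on low counts are not reported here by name. The members and lists were chosen with earlier results of these data known. Alternatives were other scaling (DESeq2 1.42.0 size factors, totals alone), other filters, DESeq2, limma-voom, the replicate number as a block, and libraries left out.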

Additional observations from a re-analysis of the deposited data

Results flagged for a closer look

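Bag3 in Control 1 was low beside the other Control libraries: 65.2 CPM, the next being 72.8 CPM, a gap of 0.741 of the range of the 5 libraries. It was the only 1 of 28 groups of values examined in this way, and chance alone gives about 1 in 20.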

How the results depend on the processing

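No member was called under any of the 18 alternatives, where the lowest adjusted p of a member was 0.734. Over the whole table the count of called genes was 0 except without a filter on low counts, where 3 of 26531 genes were called, no member among them. Without adjustment, p was under 0.05 for 662 genes by DESeq2 and 808 by limma-voom, beside 694 by edgeR. Several fold changes near 0 changed sign, each well inside its interval. Hsph1 was -0.0226 (log2) by limma-voom and -0.0413 without both libraries numbered 5. It ran from -0.0791 to 0.0506 as single libraries were left out. Hspb1 was 0.000454 by limma-voom, 0.00522 without both numbered 5, and ran from -0.024 to 0.0189. Hsp90aa1 ran from -0.0595 to 0.00443. The cause was not tested. The counts of Hspa1a and Hspa1b added together gave -0.0112, between 0.0687 for Hspa1a and -0.024 for Hspa1b. Most of the added counts were those of Hspa1b. The count of correlated pairs was 7 with library totals and 9 by rho. It was 8 with group means removed, where the p-values tend to be too small. But it was 0 without both libraries numbered 5 and 0 to 8 as single libraries were left out. The SD of Hsph1 was 0.102 without both numbered 5, a setting chosen, as were the other single-library settings for the SD and the mean of 4 genes, after seeing the data. The labels do not say whether same-numbered libraries were paired. Such libraries had r of -0.0306, 0.274, 0.0881, 0.0392 and 0.0623, and 1 of 5 BGN libraries, the one numbered 2, was most like its own number. These values do not settle whether the samples were paired. With the replicate block 0 genes and 0 members were called, and Hsph1 was -0.000142. The smallest edgeR adjusted p was then 0.238, against 0.883 without the block. An unadjusted edgeR p under 0.05 was reached by 825 genes with the block and 694 without. Counting error was largest for Hspa1a, the member with the fewest counts.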
